A study of Mus musculus with 12 samples.

Results

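Granins are acidic proteins of the dense cores of secretory granules, and the 5 granin genes examined here are Chga, Chgb, Scg2, Scg3 and Vgf. They were taken by gene name from the RNA-Seq table of AtT-20 cells, where each name occurred once, and they are 5 of its 16385 genes. All 5 were among the 12578 genes with at least 1 FPKM, a fragment count normalized for transcript length and library size, in at least 2 libraries, and each was above 29 FPKM in every library. The table names no unit, and its values were taken as FPKM.

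AtT-20 is a mouse pituitary tumor line that serves as a model of the corticotrope, the cell that secretes adrenocorticotropic hormone. The libraries compared came from 6 groups with 2 libraries each. The cells of these groups expressed a Pax7 labelled NoTag, the C-terminal deletion mutant Pax7-465, the related factor Pax3, or the Pax7 isoforms Q-GL-, Q+GL+ and Q-GL+. Q is a glutamine and GL a glycine-leucine pair that alternative splicing places in the paired domain, which binds DNA. The paper describes Pax3 as Q+GL-, and its supplement labels the deletion mutants as Pax7 Q+GL-. Pax3 and Pax7-465 therefore also differ from Q+GL+ in GL, from Q-GL- in Q, and from Q-GL+ in both. According to the methods, the Pax7 constructs were delivered by retrovirus under the CMV promoter with Flag tags at both ends, so Pax7 is not under its own promoter, and each Pax7 line is a Geneticin-selected pool of many colonies. The name NoTag differs from this description, and how the Pax3 line was made is not stated there. The label of the NoTag libraries gives Pax7 as the genotype and names no isoform. AtT-20 cells without an added factor and cells listed under the name Q+GL- were not analysed here. The methods call the libraries biological replicates, but the labels do not say whether the 2 libraries of a group came from separately infected pools, so each p-value measures only the spread between these libraries.

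In neuroendocrine cells, granins aggregate with peptide hormones and calcium in the trans-Golgi network and are packed with them into granules that are released on stimulation. Several granins are also cut by the prohormone convertases into peptides of their own, as proopiomelanocortin is in corticotropes and melanotropes. Chga encodes chromogranin A, an abundant granin that promotes granule formation and is the precursor of catestatin and pancreastatin. Chgb encodes chromogranin B, which aggregates in the granule core with chromogranin A. Scg2 encodes secretogranin II, the precursor of secretoneurin. Scg3 encodes secretogranin III, which binds chromogranin A and the cholesterol-rich granule membrane. Vgf encodes a nerve growth factor-inducible granule protein that is also cut into active peptides.

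Pax7 was between 93.9 and 159 FPKM in the Pax7 libraries and between 0.159 and 0.161 FPKM in the Pax3 libraries, and the corticotrope and melanotrope factor gene Tbx19 was between 116 and 143 FPKM in all 12. Of 7 corticotrope markers, 6 were at 1 FPKM or more in every group, Pomc among them, whereas Lhb was listed at 0 in all 12 libraries and Ghrhr in the 10 other than NoTag. The NoTag libraries stood apart from the others. Their summed FPKM was between 627305 and 666609, against 413794 to 483161 in the other 10, and 733 genes were above 0 in both NoTag libraries and at 0 in the other 10. Comparisons with NoTag are therefore given separately. The depth is unknown because the values are not counts.

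The granins covered a wide range of levels, and their order was led by Chga in every library. Chga lay between 1010 and 1527 FPKM, within the 18 highest genes of each library. Chgb followed with 339 to 948 FPKM. Scg2 lay between 60.5 and 134 FPKM, Scg3 between 57.4 and 117 FPKM, and Vgf between 29.9 and 63.0 FPKM. The plot of FPKM by library shows the 5 genes.

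**Figure D1:**
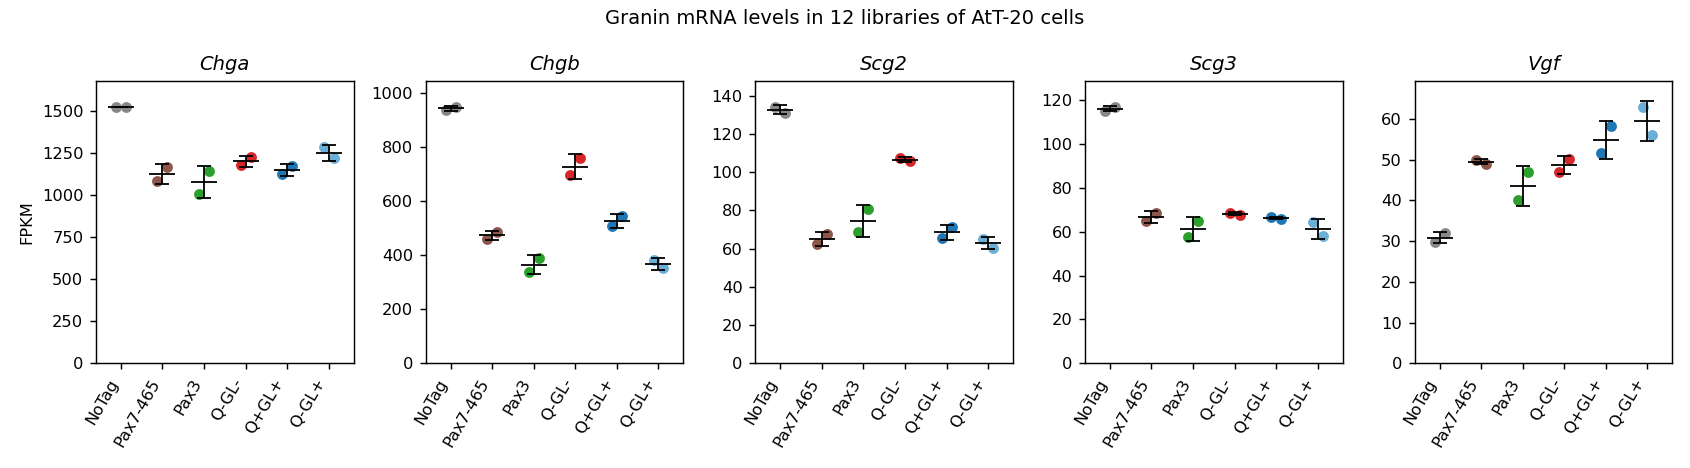
FPKM of the 5 granins in 12 libraries of AtT-20 cells, 1 panel per gene with its own axis from 0. Points are libraries, horizontal bars the mean and error bars the SD (n = 2 per group). Chgb and Scg2 stand higher in the Q-GL- libraries than in the Pax7-465, Pax3, Q+GL+ and Q-GL+ libraries, while Chga and Scg3 stay within narrow ranges outside NoTag and Vgf is lowest in NoTag.

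Among the 5 groups other than NoTag, Chgb and Scg2 differed and the other granins did not pass the test. The adjusted p of limma's moderated F test was 0.00031 for Chgb and 0.0017 for Scg2, against 0.080 for Vgf, 0.49 for Chga and 0.51 for Scg3. Thus 2 of 5 granins passed, where 4.78% of all tested genes did. Vgf also passed after quantile normalization (adjusted p = 0.012) and after median centring of the libraries (0.033), as well as without Pax3 replicate 2.

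The first comparison asked whether the GL pair matters in isoforms without Q. Chgb and Scg2 were higher in Q-GL- cells than in Q-GL+ cells. Chgb was at 694 and 759 FPKM in the 2 Q-GL- libraries, against 382 and 352 FPKM in the Q-GL+ libraries. The groups did not overlap, and the ratio of their means was 1.98. The fitted log2 fold change was 0.98 ± 0.094 (SE, limma on log2(FPKM + 1), adjusted p = 0.00011), with a 95% interval from 0.78 to 1.19. Scg2 was at 107 and 106 FPKM in Q-GL- cells, against 65.2 and 60.5 FPKM in Q-GL+ cells. This is a ratio of 1.70 without overlap, and the log2 fold change was 0.75 ± 0.087 (limma adjusted p = 0.00047). Both calls held in all 22 alternatives, where the log2 fold change lay between 0.92 and 1.05 for Chgb and between 0.69 and 0.81 for Scg2.

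The other 3 granins did not pass this test. Scg3 was at 68.6 and 67.6 FPKM in Q-GL- cells, against 64.4 and 58.0 FPKM in Q-GL+ cells, and its log2 fold change was 0.15 ± 0.080 (limma adjusted p = 0.33). Chga was at 1178 and 1225 FPKM in Q-GL- cells, against 1287 and 1219 FPKM in Q-GL+ cells. These values overlap, and the 95% interval of the log2 fold change, -0.26 to 0.14, does not reach the value found for Chgb. Vgf went the other way, with 47.1 and 50.2 FPKM in Q-GL- cells and 63.0 and 56.1 FPKM in Q-GL+ cells. The libraries did not overlap, but the log2 fold change of -0.29 ± 0.095 missed the threshold (limma adjusted p = 0.12, unadjusted p = 0.011) and passed it only after quantile normalization (-0.34, adjusted p = 0.013) or median centring (-0.31, adjusted p = 0.040). In all, 2 of 5 granins were called, both higher, beside 4.17% of all tested genes in either direction and 3.06% higher. Over all genes 385 were higher and 139 lower, and after quantile normalization 559 and 337. The median log2 fold change was 0.15 over the granins and 0.04 over all genes tested.

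In the same comparison, some markers of the pituitary cell types were higher, some lower and some overlapped. The summed FPKM of the 7 corticotrope markers, most of it Pomc, was between 9144 and 9686 in Q-GL- cells and between 7001 and 7664 in Q-GL+ cells. Pomc, Pcsk1 and Lifr were higher in both Q-GL- libraries, while Crhr1 and Nr4a1 overlapped. Tbx19 was lower, at 117 and 116 FPKM in Q-GL- cells, against 129 and 119 FPKM in Q-GL+ cells. Neurod1 was also lower, at 11.5 FPKM in both Q-GL- libraries, against 13.1 and 12.3 FPKM in Q-GL+ cells. The summed FPKM of the 4 melanotrope markers in the table, the introduced Pax7 and the convertase gene Pcsk2 among them, was between 222 and 233 in Q-GL- cells and between 212 and 218 in Q-GL+ cells. Within that list, Pcsk2 was at 35.8 and 36.6 FPKM in Q-GL- cells, against 16.2 and 15.4 FPKM in Q-GL+ cells, and Oacyl at 11.1 and 10.6 FPKM in Q-GL- cells, against 4.34 and 4.11 FPKM in Q-GL+ cells. Pax7 was at 95.2 and 93.9 FPKM in Q-GL- cells and at 104 and 102 FPKM in Q-GL+ cells, and Megf11 at 80.3 and 92.2 FPKM in Q-GL- cells and at 93.4 and 90.7 FPKM in Q-GL+ cells. In bulk RNA, a change in the share of cells of a type and a change of RNA per cell cannot be told apart, and the part of these markers in the granin result was not tested. Fibroblast and vessel markers summed to less than 1.20 FPKM in every library. Of the 3 chromaffin markers only Th, which encodes tyrosine hydroxylase, was in the table. It was at 1.25 and 1.36 FPKM in Q-GL- cells, against 0.364 and 0.266 FPKM in Q-GL+ cells, and reached 1 FPKM elsewhere only in the NoTag libraries (1.67 and 2.16). The part of Th in the granin result was not tested.

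The Q-GL- libraries were also set against the other 3 groups. Chgb was at 694 and 759 FPKM in Q-GL- cells and at 506 and 543 FPKM in Q+GL+ cells, and its log2 fold change was 0.47 ± 0.094 (limma adjusted p = 0.024). Scg2 was at 107 and 106 FPKM in Q-GL- cells and at 65.8 and 71.3 FPKM in Q+GL+ cells, and its log2 fold change was 0.63 ± 0.087 (limma adjusted p = 0.0023). These were the 2 of 5 granins called there, where 2.15% of all genes were. The Chgb call was lost when either Q-GL- or either Q+GL+ library was left out (log2 fold change 0.40 to 0.53, adjusted p 0.080 to 0.22), and the Scg2 call held in all 22 alternatives.

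Pax3 cells were below Q-GL- cells in the same genes. Chgb was at 339 and 391 FPKM in the Pax3 libraries and Scg2 at 68.8 and 80.6 FPKM, and their log2 fold changes over Q-GL- were -0.99 ± 0.094 (limma adjusted p = 9.8e-05) and -0.51 ± 0.087 (limma adjusted p = 0.0057). Here too 2 of 5 granins were called, both lower, beside 4.33% of all genes. The Scg2 call was lost without either Q-GL- library (adjusted p 0.053 to 0.055), and the Chgb call held in all 22 alternatives.

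Pax7-465 cells were likewise below Q-GL- cells in Chgb and Scg2. Chgb was at 460 and 485 FPKM in the Pax7-465 libraries and Scg2 at 62.3 and 67.5 FPKM. The log2 fold change of Pax7-465 over Q-GL- was -0.62 ± 0.094 for Chgb (limma adjusted p = 0.014) and -0.71 ± 0.087 for Scg2 (limma adjusted p = 0.0034), the 2 granins called where 0.445% of all genes were. The Chgb call was lost without any single library of these 2 groups (adjusted p 0.053 to 0.23) and with the 2 groups fitted alone (0.071), and the Scg2 call without either Q-GL- library (adjusted p 0.051 to 0.069). These comparisons and the first share the Q-GL- libraries, so they are not independent of each other.

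The 4 granins with an entry in the RefSeq promoter table of GRCm38.p6 are shown with the 100 bases before their RefSeq start. The full octamer of the cAMP response element lies there in Chgb and Scg2, the 2 granins that differed between the isoforms. Chga and Scg3 hold its first bases. The element was chosen for display with the expression results known, and its part in them was not tested. This element, the CRE, is bound by factors of the CREB family. Capitals mark the CRE octamer TGACGTCA or, where that is not present, its first bases TGACG, and all sequences run 5′ to 3′ on the strand of the gene. From there the sequence reads TGACGtaa in Chga and TGACGcca in Scg3, each a single base away from the octamer.
Chgb: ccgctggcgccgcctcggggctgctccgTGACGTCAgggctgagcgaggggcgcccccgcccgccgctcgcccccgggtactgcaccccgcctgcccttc
Scg2: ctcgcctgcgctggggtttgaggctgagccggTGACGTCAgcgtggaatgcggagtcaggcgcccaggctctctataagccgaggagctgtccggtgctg
Chga: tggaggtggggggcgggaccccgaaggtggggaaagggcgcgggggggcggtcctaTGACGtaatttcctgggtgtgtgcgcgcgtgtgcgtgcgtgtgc
Scg3: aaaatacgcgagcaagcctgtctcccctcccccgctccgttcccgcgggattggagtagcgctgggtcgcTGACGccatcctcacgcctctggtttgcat

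The Chgb sequence is at chr2:132781542-132781641 on the plus strand, with the octamer starting 72 bases before the RefSeq start. The Scg2 sequence is at chr1:79440027-79440126 on the minus strand, with the octamer 68 bases before the start. Chga, at chr12:102554841-102554940 on the plus strand, has TGACG 44 bases before its start, and Scg3, at chr9:75684057-75684156 on the minus strand, has it 30 bases before. In the 300-base promoters of the table, read on both strands, the octamer occurred in 2 of 4 granins and in 1.79% of 32851 promoters, and TGACG, which is also part of the octamer, in 4 of 4 granins and in 20.8%. The homeodomain core TAAT was found in 2 of 4 granin promoters and in 58.0% of all. The 2 were those of Chga and Scg3, which did not pass between the isoforms. TAAT followed by ATTA was found in 0 of 4 and in 0.390% of all with 2 bases between them, and in 0 of 4 and 0.487% of all with 3 bases between them. A match of letters is a description of the sequence, and binding was not measured here. The RefSeq start of Chgb lies 364 bases and that of Scg2 94 bases inside the gene as the expression table places it.

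In the expression table the genes lie in mm10 at chr12:102554969-102565027 (Chga, ENSMUSG00000021194, plus strand), chr2:132781278-132795079 (Chgb, ENSMUSG00000027350, plus strand), chr1:79434669-79440120 (Scg2, ENSMUSG00000050711, minus strand), chr9:75643189-75684056 (Scg3, ENSMUSG00000032181, minus strand) and chr5:137026392-137033351 (Vgf, ENSMUSG00000037428, plus strand). The 5 granins are thus on 5 chromosomes.

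**Figure D2:**
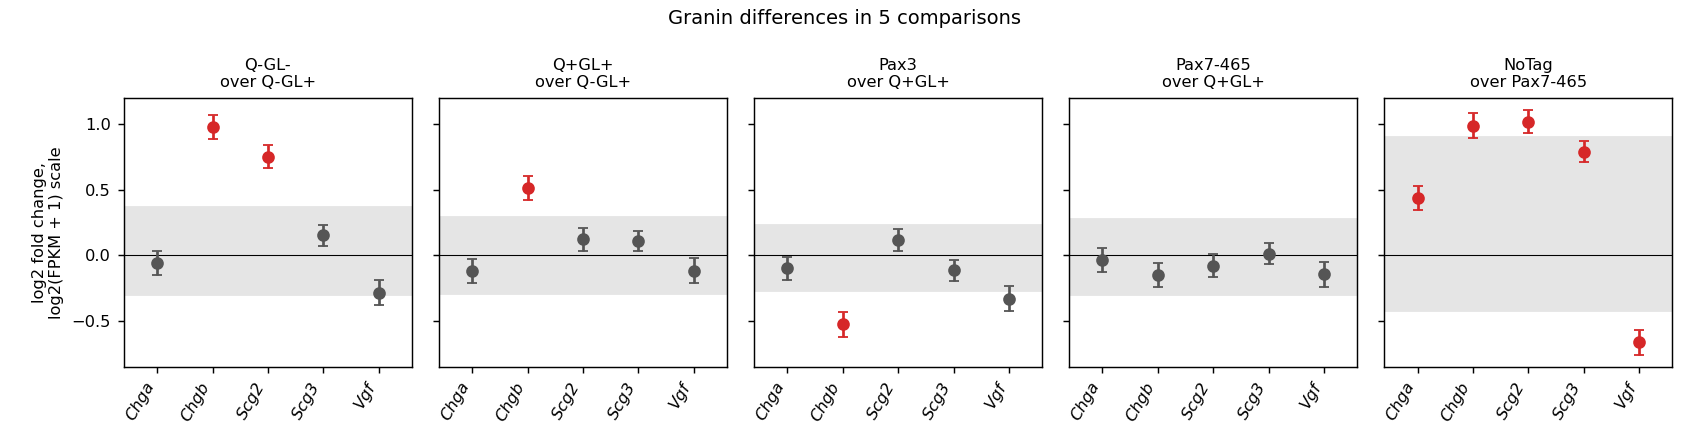
Log2 fold change of each granin on the log2(FPKM + 1) scale in 5 comparisons, with error bars for the SE of the limma fit. Red points have an adjusted p under 0.05, and the grey band spans the central 90% of all 12578 genes tested. Chgb is red in 4 panels, Scg2 in the panels of Q-GL- over Q-GL+ and of NoTag over Pax7-465, and Chga, Scg3 and Vgf only in the NoTag panel.

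The second comparison asked whether Q matters in isoforms that carry GL. Chgb was higher in Q+GL+ cells, at 506 and 543 FPKM, than in Q-GL+ cells, at 382 and 352 FPKM. The ratio of means was 1.43 and the log2 fold change 0.51 ± 0.094 (limma adjusted p = 0.027). It was the only granin called, 1 of 5 beside 0.962% of all genes. The call was lost without either NoTag library (0.51, adjusted p = 0.060), without Q+GL+ replicate 1 (0.56, adjusted p = 0.10) or 2 (0.46, adjusted p = 0.26), and without Q-GL+ replicate 1 (0.57, adjusted p = 0.11) or 2 (0.45, adjusted p = 0.22). The other 4 log2 fold changes were 0.12 for Scg2, 0.11 for Scg3, -0.12 for Chga and -0.12 for Vgf, with limma adjusted p between 0.60 and 0.66. Their 95% intervals all lay between -0.32 and 0.31.

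The third comparison set Pax3 against Pax7 Q+GL+, which also differ in GL. Pax3 cells had less Chgb, at 339 and 391 FPKM, than Q+GL+ cells, at 506 and 543 FPKM, with a log2 fold change of -0.53 ± 0.094 (limma adjusted p = 0.047). This call of 1 of 5 granins stood beside 0.262% of all genes, and it was lost in 17 of 22 alternatives, among them the omission of any single library other than Pax3 replicate 2. The log2 fold change itself stayed between -0.63 and -0.42 in all 22, but many of these cannot move it. It can move only with the scaling, the pseudocount or the omission of a Pax3 or Q+GL+ library. With no single library left out, the limma adjusted p of the lost calls was between 0.061 and 0.36. Vgf was at 40.0 and 47.0 FPKM in Pax3 cells and at 51.6 and 58.2 FPKM in Q+GL+ cells, without overlap, and its log2 fold change of -0.33 ± 0.095 did not pass (limma adjusted p = 0.23, unadjusted p = 0.0046). Scg2, at 68.8 and 80.6 FPKM in Pax3 cells, overlapped with Q+GL+ cells, at 65.8 and 71.3 FPKM.

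Pax7-465, which lacks the end of the C-terminal domain, was set against Q+GL+, and no granin passed. These forms also differ in GL. Chgb was at 460 and 485 FPKM in Pax7-465 cells, against 506 and 543 FPKM in Q+GL+ cells, and its log2 fold change of -0.15 had a 95% interval from -0.35 to 0.05 (limma adjusted p = 0.55). The log2 fold changes of the others were -0.15 for Vgf, -0.08 for Scg2, -0.03 for Chga and 0.01 for Scg3, and their 95% intervals lay between -0.35 and 0.19. With limma, 0 of 5 granins were called, beside 1.33% of all genes. An unadjusted limma p under 0.05 was found for 0 granins and for 1653 of all 12578 genes.

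In the 3 remaining pairs without NoTag, limma also called 0 of 5 granins. In Pax7-465 over Pax3, 1.16% of all genes were called. An unadjusted limma p under 0.05 was found for 2 granins and for 1369 of all 12578 genes. The log2 fold change of Chgb was 0.38 ± 0.094 (limma adjusted p = 0.093). Pax7-465 over Q-GL+ had 0.795% of all genes called, and 2 granins and 1295 of all genes had an unadjusted limma p under 0.05. Chgb was at 0.36 ± 0.094 there (limma adjusted p = 0.12). Both Chgb differences passed after quantile normalization and after median centring, with adjusted p between 0.00095 and 0.026. They also passed without Pax3 replicate 2 (adjusted p = 0.040 and 0.047), and the second of them without Pax3 replicate 1 (0.047). Pax3 over Q-GL+ had 0.708% of all genes called, and 3 granins and 1279 of all genes had an unadjusted limma p under 0.05. There the log2 fold change of Chgb was -0.01 ± 0.094 while that of Vgf was -0.45 ± 0.095 (limma adjusted p = 0.060). Vgf passed there after quantile normalization, after median centring, with a filter of 5 FPKM and without Pax3 replicate 2 (adjusted p 0.011 to 0.041).

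The level of each granin was then ordered over the 6 groups. For Chgb the means ± SD (n = 2) were 941 ± 9.28 FPKM in NoTag, 727 ± 46.2 in Q-GL-, 525 ± 25.7 in Q+GL+, 473 ± 17.7 in Pax7-465, 367 ± 21.3 in Q-GL+ and 365 ± 36.4 FPKM in Pax3 cells. The 2 steps from NoTag to Q-GL- and from Q-GL- to Q+GL+ passed the test between neighbours, and the 3 below did not. For Scg2 the means were 133 ± 2.22 FPKM in NoTag, 107 ± 1.12 in Q-GL-, 74.7 ± 8.36 in Pax3, 68.6 ± 3.87 in Q+GL+, 64.9 ± 3.71 in Pax7-465 and 62.9 ± 3.30 FPKM in Q-GL+ cells, where the 2 uppermost steps passed and the 3 below did not. Outside NoTag, Chgb thus passed in 6 of 10 pairs of groups, Scg2 in the 4 pairs that hold Q-GL-, and Chga, Scg3 and Vgf in 0. These pairs share libraries. For Chgb, only the calls of Q-GL- against Q-GL+ and against Pax3 were lost in no alternative. For Scg2, only those of Q-GL- against Q-GL+ and against Q+GL+ were. The orders of Chga, Scg3 and Vgf outside NoTag had no step between neighbours that passed, with limma adjusted p between 0.41 and 1.

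A ratio between granins within a library is not changed by a scaling factor that applies to the whole library. Chgb reached 0.589 and 0.620 of the Chga value in the Q-GL- libraries, against 0.297 and 0.289 in the Q-GL+ libraries. The ratio was 0.449 and 0.461 in Q+GL+, 0.424 and 0.416 in Pax7-465 and 0.336 and 0.341 in Pax3 cells. In NoTag cells it was 0.612 and 0.622, overlapping with Q-GL-. The Scg2 to Scg3 ratio was 1.57 in both Q-GL- libraries, and 1.01 and 1.04 in the Q-GL+ libraries. Both libraries of every other group were below Q-GL- in this ratio, from 0.962 in Pax7-465 to 1.24 in Pax3 cells, NoTag cells with 1.17 and 1.12 included. In NoTag cells Scg2 itself was higher than in Q-GL- cells (means of 133 and 107 FPKM), and so was Scg3 (116 and 68.1 FPKM). Outside NoTag, Chga and Scg3 varied little, so there the first 2 ratios mostly restate the differences of Chgb and Scg2. The Vgf to Chga ratio was 0.0196 and 0.0209 in NoTag cells and between 0.0396 and 0.0495 in the other 10 libraries.

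**Figure D3:**
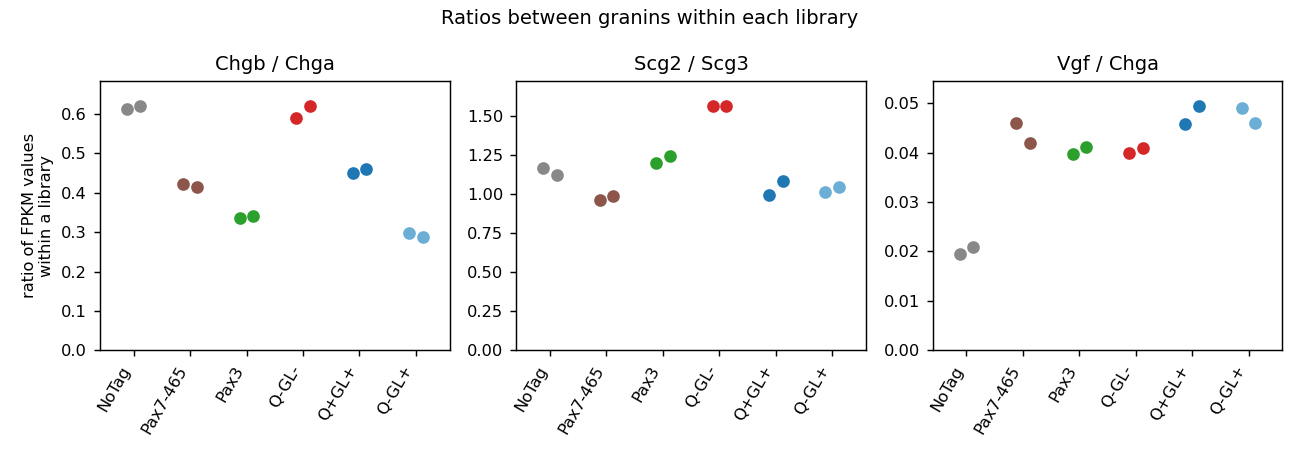
Ratio of the FPKM of 2 granins within each of 12 libraries (points, 2 per group), with axes from 0. The Chgb to Chga ratio is highest in NoTag and Q-GL- libraries (0.589 to 0.622), the Scg2 to Scg3 ratio in Q-GL- libraries (1.57), and the Vgf to Chga ratio is lowest in NoTag libraries.

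In NoTag cells Chgb, Scg2 and Scg3 were higher and Vgf was lower than in Pax7-465 cells, and Chga was higher except after quantile normalization. The median log2 fold change of all genes in this comparison was 0.19, so each change is given also after centring the libraries on their median. Scg2 was at 134 and 131 FPKM in NoTag cells and 62.3 and 67.5 FPKM in Pax7-465 cells, a log2 fold change of 1.02 ± 0.087, or 0.83 after centring. Chgb was at 934 and 948 FPKM in NoTag cells, against 460 and 485 FPKM in Pax7-465 cells, a log2 fold change of 0.99 ± 0.094, or 0.80 after centring.

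Scg3, which outside NoTag kept to 57.4 to 68.6 FPKM, was at 115 and 117 FPKM in NoTag cells, against 64.7 and 68.6 FPKM in Pax7-465 cells. Its log2 fold change was 0.79 ± 0.080, or 0.60 after centring. Chga was at 1527 and 1524 FPKM in NoTag cells and 1086 and 1167 FPKM in Pax7-465 cells, and its log2 fold change was 0.44 ± 0.091, or 0.25 after centring, but -0.01 after quantile normalization. Vgf was at 29.9 and 31.9 FPKM in NoTag cells, against 49.9 and 49.0 FPKM in Pax7-465 cells, a log2 fold change of -0.66 ± 0.095, or -0.85 after centring. All 5 passed the test (limma adjusted p between 3.0e-06 and 0.0021), but 45.8% of all genes did, 37.9% of them higher and 7.94% lower as shares of all genes tested. Over all genes 4766 were higher and 999 lower, and 2500 and 2792 after quantile normalization. The median over the granins was 0.79.

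Against Pax3, Q-GL-, Q+GL+ and Q-GL+ cells too, Chgb, Scg2, Scg3 and Chga were higher and Vgf lower in NoTag cells, and all 5 passed in each pair, although after quantile normalization Chga passed in none of these pairs and was not higher over Q+GL+ (-0.04) or Q-GL+ (-0.11). The median log2 fold change of all genes was 0.20 over Pax3, 0.15 over Q-GL-, 0.18 over Q+GL+ and 0.19 over Q-GL+. The share of all genes called was 47.5% over Pax3, 39.8% over Q-GL-, 46% over Q+GL+ and 48.6% over Q-GL+. The distance to Q-GL- was smaller for Chgb (log2 fold change 0.37 ± 0.094, 0.21 after centring) and Scg2 (0.31 ± 0.087, 0.15 after centring) than for Scg3 (0.76 ± 0.080, 0.60 after centring). The NoTag over Q-GL- call of Scg2 was lost after centring (adjusted p = 0.092) and without any of these 4 libraries (adjusted p 0.053 to 0.080), and that of Chgb without NoTag replicate 2 or Q-GL- replicate 1 (adjusted p 0.052 to 0.080). The call of Chga over Q-GL- (0.34) was lost without NoTag replicate 1 or 2 or Q-GL- replicate 1, with log2 fold changes from 0.32 to 0.35, and that over Q-GL+ (0.28) after centring (0.10) and without NoTag replicate 1 or 2 or Q-GL+ replicate 2, with log2 fold changes from 0.25 to 0.29. The calls of Scg3 and Vgf held in all 21 alternatives in each of the 5 pairs with NoTag. Pax7 itself and Pomc were also highest in NoTag, Pax7 at 157 and 159 FPKM and Pomc at 10547 and 10680 FPKM. Their part in these differences was not tested.

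Other genes of the granule were described from lists in the comparison of Q-GL- with Q-GL+ cells. The lists were chosen with earlier results of these data known, so their counts are descriptions and not tests. The paper already reports more Pcsk2 mRNA with the GL- isoforms than with the GL+ isoforms. Of 2 further granin-like proteins, Scg5, whose product is a chaperone of the convertase encoded by Pcsk2, averaged 153 FPKM in Q-GL- and 106 FPKM in Q-GL+ cells (log2 fold change 0.52 ± 0.10, limma adjusted p = 0.015). Pcsk1n, which encodes an inhibitor of the convertase of Pcsk1, averaged 34.2 and 31.1 FPKM in the same order (0.14 ± 0.065, limma adjusted p = 0.29). Of 7 prohormone processing enzymes, 4 were higher and 0 lower, where 3.06% of all genes tested were higher, with a median log2 fold change of 0.47 over the list and 0.04 over all genes. They were the convertase genes Pcsk2 (1.14 ± 0.074) and Pcsk1 (0.47 ± 0.092), the peptide-amidating enzyme gene Pam (0.77 ± 0.086) and the cathepsin L gene Ctsl (0.51 ± 0.10), with limma adjusted p between 5.8e-06 and 0.015.

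Of 19 genes tested, out of 20 listed, for the granule membrane, for granule biogenesis and for release, 1 was higher and 1 lower, beside 4.17% of all genes called, and the median log2 fold change was 0.02. The granule membrane protein gene Ptprn was higher (0.44 ± 0.064, limma adjusted p = 0.0021). Hid1, which acts in granule formation at the Golgi, was lower (-0.29 ± 0.070, limma adjusted p = 0.040), a call lost in 14 of 22 alternatives (adjusted p 0.053 to 0.26), 10 of which left out a single library. Of 9 regulators of neuroendocrine genes tested, out of 10 listed, limma called 0. An unadjusted limma p under 0.05 was found for 1 of them and for 2349 of all 12578 genes. The smallest adjusted p was that of the CRE modulator gene Crem (0.47 ± 0.14, adjusted p = 0.078), which passed when Pax7-465 replicate 1 or 2 was left out (0.039) and when the 2 groups were fitted alone (0.014). The calls of Scg5 and Pcsk1 were lost without any of the 4 libraries compared (adjusted p 0.053 to 0.14), and that of Ctsl without any of them but Q-GL+ replicate 1 (adjusted p 0.094 to 0.15). Those of Pcsk2, Pam and Ptprn held in all 22 alternatives.

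**Figure D4:**
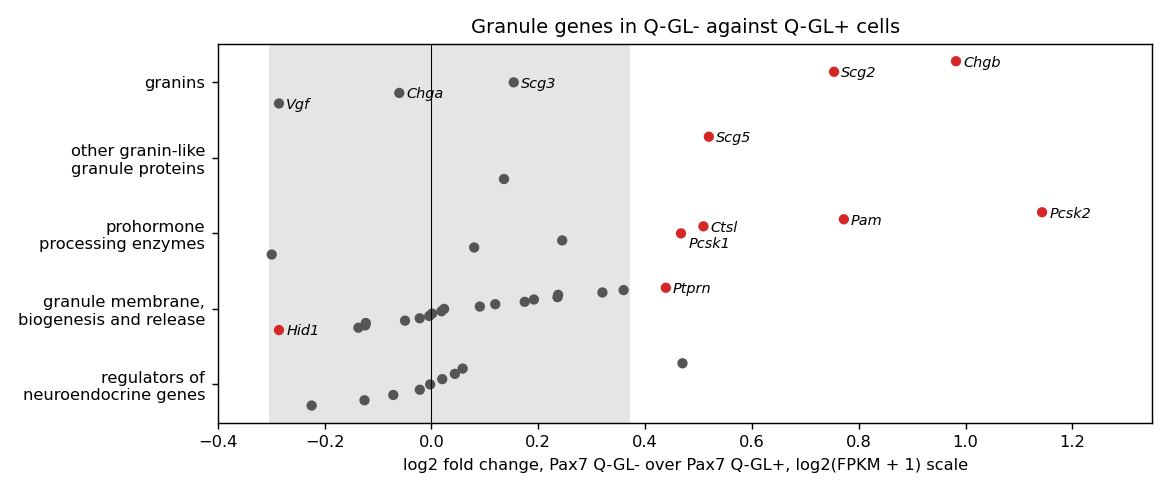
Log2 fold change, from log2(FPKM + 1), of Q-GL- over Q-GL+ cells for the tested genes of 5 lists (points, spread vertically within a list by rank). Red points have an adjusted p under 0.05 and the grey band spans the central 90% of all genes tested. Chgb and Scg2 lie to the right of the band with Scg5, 4 processing enzymes, Ptprn and Crem, which is not red, while Chga, Scg3 and Vgf lie inside it.

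The genes most like each granin were sought by the mean log2 level in the 5 groups other than NoTag, centred on each gene's own mean, among 8978 other genes with a mean of at least 5 FPKM. Likeness was the root mean square difference on the log2 scale. Chgb, with a root mean square deviation of its own of 0.37, was nearest to Fam135b (0.094), Tcp11l2 (0.10) and Amotl2 (0.13). Scg2 (0.27) was nearest to Pam (0.068), Zcchc12 (0.089) and the Golgi SNARE gene Gosr1 (0.095). Pam had group means of 119.7 FPKM in Q-GL-, 82.3 in Pax7-465, 84.5 in Pax3, 78.9 in Q+GL+ and 69.7 FPKM in Q-GL+ cells. Vgf (0.15) was nearest to the keratin gene Krt18 (0.026), Taf4 (0.029) and Anapc2 (0.030). Chga and Scg3 varied less outside NoTag (0.076 and 0.065), and the nearest genes were Cetn3 (0.0084), Pacsin1 (0.0097) and Aptx (0.015) for Chga and Gtf2h4 (0.0056), Dnajc9 (0.010) and Dennd6a (0.011) for Scg3.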

How the data were processed

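Strand-specific paired-end RNA-Seq libraries of ribosome-depleted RNA were trimmed by the authors with Trimmomatic, mapped with TopHat2 to Ensembl GRCm38 (mm10) and summarised over genes with HOMER. The total used for scaling is not given in the sources used here. The table names no unit. Its deposited values are not whole numbers and do not sum to the same total, and they were taken as FPKM made by the authors, so a count model was not used. A further 4 columns of per-sample values were not used. Starts in the table count from 0 and were printed after adding 1.

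The 12578 genes that reached 1 FPKM in 2 or more libraries were tested as log2(FPKM + 1) in 1 limma-trend fit of 12 libraries with the robust option, 1 coefficient per group. Calls have a Benjamini-Hochberg adjusted p under 0.05 over all genes tested within a comparison. Fold changes understate the change of low genes. Tables were built in Python 3.11.15 (numpy 2.4.6, pandas 2.3.3), models in R 4.3.3 (statmod 1.5.0, limma 3.58.1) and plots with matplotlib 3.10.9.

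The genes named are the granins, the 3 genes most like each, up to 4 genes with the lowest adjusted p of each list, and Pax7, Tbx19, Pomc and pituitary markers. The granins, the lists and the tests were chosen with earlier results of these data known. Alternatives were quantile normalization, median centring, a pseudocount of 0.1, no filter, a filter of 5 FPKM, limma without trend or without the robust option, only the groups compared, no NoTag libraries, a replicate block, and each library left out. With a library left out, the lone sample is assumed to vary like the other groups. The filter, trend, robust and block alternatives, and those on libraries outside a pair, leave the fold change of that pair as it was. For the 9 list genes given with a fold change, these were run after the data were seen. Promoters were read from RefSeq (GRCm38.p6), which matched 4 of 5 granins.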

Additional observations from a re-analysis of the deposited data

How the results depend on the processing

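The 2 calls of Q-GL- over Q-GL+ were unchanged in number or joined by Vgf in every alternative, and those of NoTag over Pax7-465 and of the F test moved by no more than 1.5 times. The 1 granin called in Q+GL+ over Q-GL+ became 0 without the NoTag libraries, and between 0 and 1 with a single library left out. The 1 called in Pax3 over Q+GL+ became 0 with no filter, without trend, without the robust option, with only the groups compared, without the NoTag libraries and with the replicate block, and lay between 0 and 1 with a library left out. The cause was not tested. Many of the alternatives cannot move a fold change, so the number of values below that kept their direction was partly fixed in advance. Of 1383 values of single genes under an alternative, 1280 kept their direction and side of the threshold, 78 lost a call, 16 gained one and 9 changed sign. Those with a changed sign were Chga in NoTag over Pax7-465 (-0.013), over Q+GL+ (-0.039) and over Q-GL+ (-0.11) after quantile normalization, Chgb in Pax3 over Q-GL+ (0.025 after quantile normalization, 0.017 after median centring, and -0.11 to 0.090 with a library left out), and, with a library left out, Chga (-0.084 to 0.020) and Scg3 (-0.029 to 0.052) in Pax7-465 over Q+GL+.

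There was no clear sign that replicate numbers pair the libraries, although the correlations cannot exclude it. The correlation of same-numbered deviations lay between -0.16 and 0.17, over 0.1 in 2 of 15 pairs of groups, and the replicate block changed the count only in Pax3 over Q+GL+ (1 to 0) among that comparison, Q-GL- over Q-GL+, Q+GL+ over Q-GL+, Pax7-465 over Q+GL+ and NoTag over Pax7-465. Over all genes, under 5 alternatives (quantile normalization, median centring, only the groups compared, no NoTag libraries and the block), the calls lay between 10 and 133 in Pax3 over Q+GL+ (33 as reported), 69 and 419 in Q+GL+ over Q-GL+ (121), 59 and 409 in Pax7-465 over Q+GL+ (167), 189 and 484 in Q-GL- over Q+GL+ (271) and 401 and 896 in Q-GL- over Q-GL+ (524). With 2 libraries a group and no counts, the spread between libraries is the only error.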
